A study of Homo sapiens with 12 samples.

Results

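Expression of the glial cell line-derived neurotrophic factor (GDNF) family was read in the counts of 12 RNA-seq libraries for 7 genes out of the 51838 listed: the ligands artemin (ARTN), neurturin (NRTN) and GDNF, the receptor tyrosine kinase RET, and the co-receptors GFRA1, GFRA2 and GFRA3. The members were chosen by gene symbol. The family was taken up from measured values of 1 of them: ARTN had been picked on its lower level with dexamethasone in MDA-MB-231. That difference, and what is built on the same vehicle libraries, is therefore given for ARTN as a description without a test. Its response in HCC70 was tested, as were all comparisons of NRTN, the response of GFRA3 within each line and the response of GFRA1 in MDA-MB-231. GDNF, RET and GFRA2 had too few counts for the main test and are described by their counts. All 7 symbols were found, each as a single gene.

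The study compared 2 human breast cancer cell lines described as basal-like. HCC70 cells were kept in RPMI medium, MDA-MB-231 cells in DMEM medium, and these differences of line and medium cannot be told apart. Each line received 100 nM dexamethasone, a synthetic glucocorticoid that activates the glucocorticoid receptor, or an equal volume of ethanol for 4 h, with 3 libraries in each of the 4 groups; neither line was described as carrying a genetic change. The stated purpose was to find genes regulated by the glucocorticoid receptor and STAT3. The labels do not say whether the replicates were separate cultures, and the spread that the p-values measure is that of these libraries, which may be technical.

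Artemin, neurturin and GDNF are secreted, dimeric proteins related to the transforming growth factor β family. Each binds a preferred GFRα protein held on the membrane by a lipid anchor (GDNF to GFRα1, neurturin to GFRα2, artemin to GFRα3), and the complex brings together and activates RET. The system is best known from neurons of the peripheral and central nervous system and from kidney development; GFRA1 and RET are also known from breast tumours that express the estrogen receptor.

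ARTN (ENSG00000117407.12, chromosome 1) and NRTN (ENSG00000171119.1, chromosome 19) were the family members with appreciable counts. The 250 bases upstream of their start sites are shown. The GC trends of the libraries, given below, were measured on the GC content of transcripts and not on these stretches. Both stretches are RefSeq sequence of build GRCh38.p14, 5′ to 3′ on the sense strand, with CpG dinucleotides in capitals. The counts were made on hg19 and were not read at these coordinates.
ARTN, chr1:43933551-43933800, plus strand: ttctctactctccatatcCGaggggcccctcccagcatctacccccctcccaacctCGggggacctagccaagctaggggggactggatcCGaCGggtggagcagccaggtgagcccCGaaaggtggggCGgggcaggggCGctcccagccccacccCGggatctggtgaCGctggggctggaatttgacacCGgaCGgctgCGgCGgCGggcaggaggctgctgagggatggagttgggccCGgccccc
NRTN, chr19:5804817-5805066, plus strand: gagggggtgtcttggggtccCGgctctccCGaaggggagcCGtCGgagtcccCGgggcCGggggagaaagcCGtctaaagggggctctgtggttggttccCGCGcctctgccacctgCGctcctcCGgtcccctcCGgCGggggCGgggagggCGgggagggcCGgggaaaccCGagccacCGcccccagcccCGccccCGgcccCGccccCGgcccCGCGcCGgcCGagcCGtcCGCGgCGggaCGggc
The ARTN stretch is 70.4% G and C with 15 CpG dinucleotides, and the NRTN stretch 80.4% with 31. Among 35114 promoter stretches of that length, 81.1% had a GC content at or below that of ARTN and 97.4% at or below that of NRTN. The glucocorticoid receptor hexamer AGAACA, searched on both strands, was in 12.4% of all stretches and in neither of these. Also absent from both were the AP-1 motif TGANTCA and the STAT motif TTCNNNGAA, each in 6.57% of all stretches, and a motif linked to repression by the glucocorticoid receptor, CTCC and GGAGA separated by 0 to 2 bases, in 1.43%. With 2 hexamers facing each other across 3 bases, no place in the ARTN stretch fitted more than 6 of the 12 bases. Of the other members, GDNF, RET and GFRA1 were searched in several stretches each and GFRA3 in a single one, while GFRA2 was not searched. Among these only GFRA3 had an AGAACA hexamer, read on the minus strand at position -233 from its start. ARTN has 10 annotated transcript starts in GENCODE v29, and only 1 RefSeq stretch was searched; these are matches of letters, not sites of binding.

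Total counts per library ran from 106345287 to 123218973. Levels are CPM, counts scaled to a library of 1e+06 with TMM factors, and a limit of 3 counts over a group corresponds to 0.00782 to 0.00898 CPM, which covers counting error only. FKBP5, a known glucocorticoid target, rose 6.20-fold in HCC70 and 19.9-fold in MDA-MB-231 (adjusted p = 9.35e-11 and 2.05e-13, edgeR quasi-likelihood test). The basal keratins KRT5, KRT14 and KRT17 had mean levels of 2595, 86.7 and 254 CPM in HCC70 vehicle, against 0.804, 0.238 and 1.28 CPM in MDA-MB-231 vehicle, where vimentin (VIM) was at 2212 CPM. KRT6B and TP63 were likewise lower in MDA-MB-231 (1.85 and 0.326 CPM, against 268.5 and 1.37 CPM), while EGFR, also on the list of basal markers, was at 356 CPM there and at 328 CPM in HCC70. Of the markers of other cells, the glial gene S100B had 0 counts in all 12 libraries, and the leukocyte gene PTPRC was at most at a mean of 0.187 CPM. The libraries also differed in how their counts followed the GC content of genes. Spearman's rho across 13642 genes between GC content and a library's deviation from its line's mean lay between 0.39 and 0.54 in the HCC70 dexamethasone libraries and between -0.64 and -0.16 in the HCC70 vehicle libraries. In MDA-MB-231 the vehicle libraries had 0.72, 0.18 and -0.26 and the dexamethasone libraries -0.55, 0.29 and -0.53. Genes are not independent replicates in these correlations. An offset that removes the GC and length trend of each library was fitted as an alternative. Its values are given for family members and some of the listed genes, and not for the neighbouring genes.

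ARTN encodes artemin, the ligand that prefers GFRα3. In HCC70 it was at 13.4, 12.9 and 13.0 CPM in the vehicle libraries and at 37.3, 35.6 and 33.6 CPM in the dexamethasone libraries. The groups did not overlap, and each dexamethasone library was far above every vehicle library. The means were 13.1 ± 0.270 and 35.5 ± 1.85 CPM (SD, n = 3), and ARTN rose by a log2 fold change of 1.44 ± 0.18 (SE), or 2.71-fold (adjusted p = 0.000788 over 28141 tested genes, edgeR quasi-likelihood test). It stood 74th by log2 fold change among the 719 genes that rose in this line. ARTN was 1 of the 4 tested members and the only one called in HCC70, where 3.96% of all tested genes were called.

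In MDA-MB-231 the order was the opposite. The vehicle libraries held 48.9, 35.9 and 28.3 CPM of ARTN and the dexamethasone libraries 6.69, 8.99 and 6.60 CPM. The groups did not overlap, and the lowest vehicle library was still well above the highest treated one. The means were 37.7 ± 10.4 and 7.43 ± 1.35 CPM (SD, n = 3), a log2 difference of -2.34 ± 0.18 (SE), or 5.08-fold lower. This is the value ARTN was chosen from, and it stood 53rd among the 2240 genes that fell. In this line 14.6% of all tested genes were called, and nothing is read from the place of ARTN among them.

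**Figure D1:**
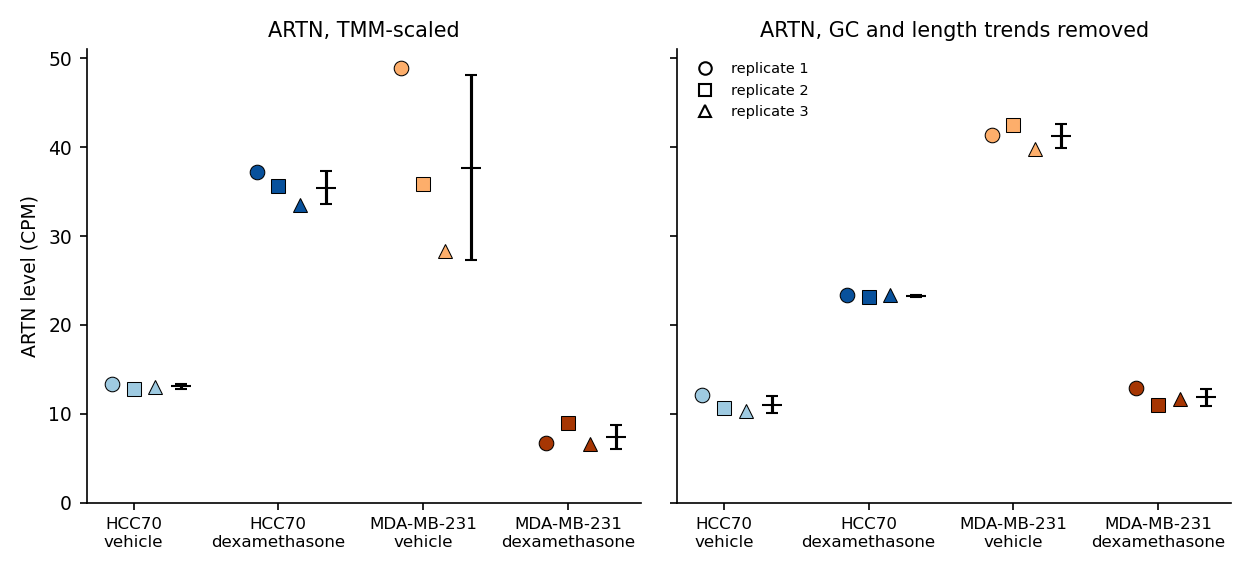
ARTN level in CPM (vertical axis, from 0) in each of the 12 libraries by line and treatment; symbols mark replicates and the bars beside them the mean and SD of 3 libraries. The left panel has TMM-scaled values and the right panel values with the GC and length trends of each library removed. The MDA-MB-231 vehicle libraries spread from 28.3 to 48.9 CPM on the left and from 39.8 to 42.5 CPM on the right. The HCC70 vehicle libraries spread from 12.9 to 13.4 CPM on the left and from 10.3 to 12.1 CPM on the right. The direction in each line is the same in both panels.

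Over the 4 groups ARTN therefore ran from MDA-MB-231 vehicle (37.7 CPM) and HCC70 dexamethasone (35.5 CPM), whose libraries overlapped, through HCC70 vehicle (13.1 CPM) down to MDA-MB-231 dexamethasone (7.43 CPM) on the TMM scale. The order of the lines was reversed by treatment: in vehicle every MDA-MB-231 library was above every HCC70 library, and with dexamethasone every HCC70 library was above every MDA-MB-231 library. In vehicle the log2 difference of HCC70 from MDA-MB-231 was -1.53 ± 0.18 (SE), or 2.88-fold lower in HCC70, and it shares its MDA-MB-231 libraries with the difference ARTN was picked on. The response in HCC70 minus that in MDA-MB-231 was 3.78 ± 0.25 (SE) on the log2 scale, or 13.8-fold.

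ARTN transcripts are 69.6% G and C, and the libraries' GC trends moved with the groups in HCC70 and with the spread among the MDA-MB-231 vehicle libraries. With the GC and length offset the MDA-MB-231 vehicle libraries came to 41.4, 42.5 and 39.8 CPM, and their coefficient of variation went from 27.6% to 3.32%. It went from 18.2% to 8.25% in MDA-MB-231 dexamethasone and from 5.22% to 0.438% in HCC70 dexamethasone. In HCC70 vehicle it grew from 2.06% to 8.36%. The HCC70 libraries held 3762 to 4168 ARTN counts with dexamethasone and 1427 to 1594 in vehicle. The values of 0.438% and 2.06% lie below the counting error of such counts, so nothing is read from their size. The GC trends of the HCC70 libraries split by treatment, so the offset and the treatment cannot be told apart there. The group means were 11.03 ± 0.922 CPM in HCC70 vehicle, 23.3 ± 0.102 CPM in HCC70 dexamethasone, 41.2 ± 1.37 CPM in MDA-MB-231 vehicle and 11.9 ± 0.979 CPM in MDA-MB-231 dexamethasone (SD, n = 3). With this offset HCC70 dexamethasone and MDA-MB-231 vehicle no longer overlapped, while HCC70 vehicle (10.3 to 12.1 CPM) and MDA-MB-231 dexamethasone (10.97 to 12.9 CPM) did, so that MDA-MB-231 dexamethasone was no longer the lowest group. The rise in HCC70 was then 1.08 ± 0.06 on the log2 scale, or 2.11-fold (adjusted p = 2.73e-08, edgeR with the offset), and the log2 difference in MDA-MB-231 was -1.80 ± 0.07. The difference between the responses was 2.88 ± 0.09 (SE), or 7.36-fold in place of 13.8-fold.

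Among the 533 genes called in both lines, 377 moved in the same direction, 124 rose in HCC70 and fell in MDA-MB-231, and 32 did the reverse. ARTN is counted among the 124, but its MDA-MB-231 side is the value it was picked on. Nothing is read from its place there. The 124 genes are 0.441% of all tested genes. The 2 responses share no control libraries.

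NRTN encodes neurturin, the ligand that prefers GFRα2. Its levels in HCC70 were 1.401, 1.25 and 1.37 CPM in vehicle and 1.58, 1.85 and 1.57 CPM with dexamethasone. The treated libraries were all slightly above the vehicle libraries, but the difference did not pass the test (log2 0.31 ± 0.24, adjusted p = 0.512, edgeR). In MDA-MB-231 the vehicle libraries had 1.27, 0.828 and 0.499 CPM and the dexamethasone libraries 0.620, 0.694 and 0.488 CPM, and the groups overlapped. The log2 difference was -0.53 ± 0.26 (adjusted p = 0.186, edgeR), and the responses differed by 0.84 ± 0.35 (adjusted p = 0.125), where 12.1% of all tested genes were called for this difference.

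NRTN thus had the signs of ARTN in both lines without passing a test in either. NRTN transcripts are 70.0% G and C. With the GC and length offset its log2 differences were -0.04 in HCC70 and -0.00032 in MDA-MB-231, and the difference of the responses was -0.04, so the direction in HCC70 and of the difference turned. Without MDA-MB-231 vehicle replicate 3, the lowest vehicle library, the test was passed in MDA-MB-231 (log2 -0.80, adjusted p = 0.0143) and for the difference (1.11, adjusted p = 0.0117).

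Between the lines in vehicle NRTN was higher in HCC70, at 1.34 ± 0.0799 CPM against 0.866 ± 0.388 CPM (SD, n = 3), a log2 fold change of 0.63 ± 0.25, or 1.55-fold (adjusted p = 0.0304, edgeR). The highest MDA-MB-231 vehicle library lay within the range of the HCC70 libraries. The call was lost with the GC and length offset (log2 0.39, adjusted p = 0.054) and on leaving out any 1 of 4 vehicle libraries: HCC70 replicate 1 or 3 (adjusted p = 0.0747 and 0.069) or MDA-MB-231 replicate 2 or 3 (adjusted p = 0.0822 and 0.109). Between the lines in vehicle 79.2% of all tested genes were called.

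**Figure D2:**
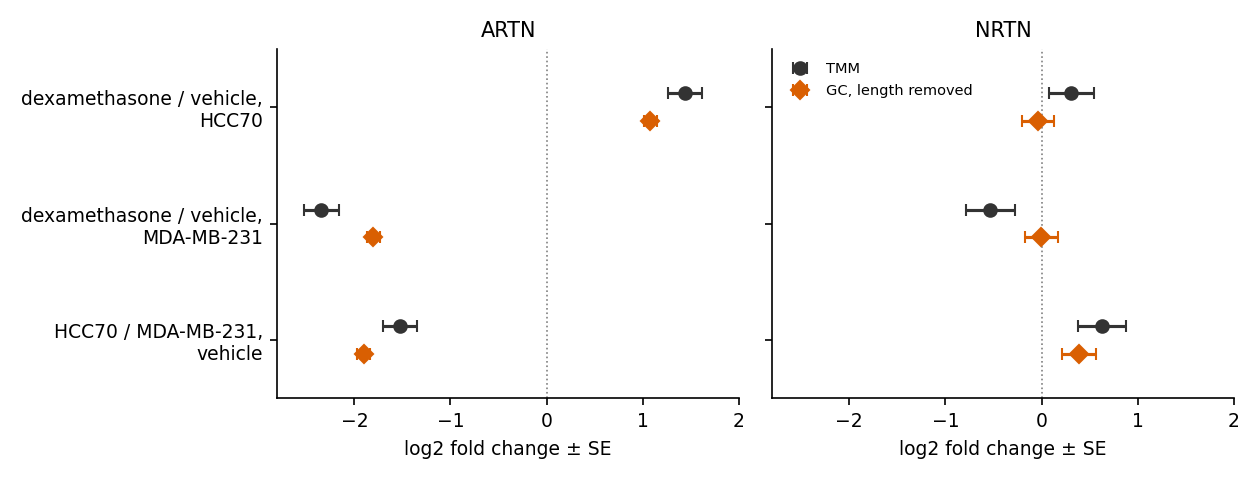
Log2 fold changes (horizontal axis) of ARTN and NRTN with standard errors for dexamethasone against vehicle in each line and, in vehicle, for HCC70 against MDA-MB-231, from the TMM-scaled fit (circles) and with GC and length trends removed (diamonds). ARTN keeps its sign in all 3 comparisons, while NRTN moves from 0.31 and -0.53 to values near 0 in the 2 treatment comparisons.

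GDNF, the founding ligand and the one that prefers GFRα1, was near the limit of detection and did not pass the low-count filter. Its counts in HCC70 were 2, 0 and 0 in vehicle and 0, 1 and 0 with dexamethasone. In MDA-MB-231 they were 2, 5 and 6 in vehicle and 0 in all 3 treated libraries. Every vehicle library of that line thus held some GDNF reads and no treated library any. Over the groups this is 13 counts against 0, at least 4.60-fold lower with dexamethasone against a limit of 3 counts over the group, and without the filter it did not pass (adjusted p = 0.0644, edgeR). In the GENCODE v29 annotation, which is not that of the counts, 526 bases of the GDNF exons (12.3%) overlap the antisense gene GDNF-AS1, and the counts do not separate strands.

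Of the co-receptors, GFRA1 was found in MDA-MB-231. Its counts there were 33, 24 and 27 in vehicle and 27, 18 and 11 with dexamethasone. In HCC70 vehicle all 3 libraries had 0 counts, and 1 of the dexamethasone libraries had 1 count. The 84 counts in MDA-MB-231 vehicle against 0 in HCC70 vehicle put GFRA1 at least 26.8-fold higher in MDA-MB-231 against a limit of 3 counts over the group, at a mean of 0.233 ± 0.0444 CPM. GFRA1 passed the low-count filter through MDA-MB-231 alone, so no test of this difference is given. With dexamethasone the MDA-MB-231 mean was 0.146 ± 0.0608 CPM, the libraries overlapped those in vehicle, and the difference did not pass (log2 -0.67 ± 0.39, adjusted p = 0.27, edgeR).

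GFRA3, the preferred co-receptor of artemin, was counted at a low level in both lines. HCC70 had 14, 18 and 11 counts in vehicle and 20, 11 and 12 with dexamethasone, ranges that overlapped. MDA-MB-231 had 10, 9 and 4 counts in vehicle and 4, 3 and 0 with dexamethasone. Scaled to CPM the treated MDA-MB-231 libraries were all below the vehicle libraries, at 0.0183 ± 0.0162 against 0.0630 ± 0.0251 CPM (SD, n = 3), but the difference did not pass (log2 -1.74 ± 0.69, adjusted p = 0.107, edgeR). In HCC70 the log2 difference was 0.05 ± 0.47 (adjusted p = 0.984, edgeR). The log2 difference between the responses was 1.79 ± 0.83, and that between the lines in vehicle was 0.96 ± 0.51. GFRA3 passed the low-count filter through HCC70 alone, so no test of these 2 differences is given. GFRA2, the co-receptor of neurturin, had 2 counts in HCC70 vehicle replicate 3 and 0 in the other 11 libraries.

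RET, the kinase through which the family signals, was all but absent. HCC70 had 2, 4 and 0 counts in vehicle and 0, 0 and 2 with dexamethasone, and all 6 MDA-MB-231 libraries had 0. A count of 0 over the 3 MDA-MB-231 vehicle libraries allows up to 0.00829 CPM. The 6 counts of HCC70 vehicle are at least 2.09-fold above that limit, and without the low-count filter the difference between the lines did not pass (adjusted p = 0.094, edgeR). A dexamethasone effect on RET was not detectable at this depth.

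**Figure D3:**
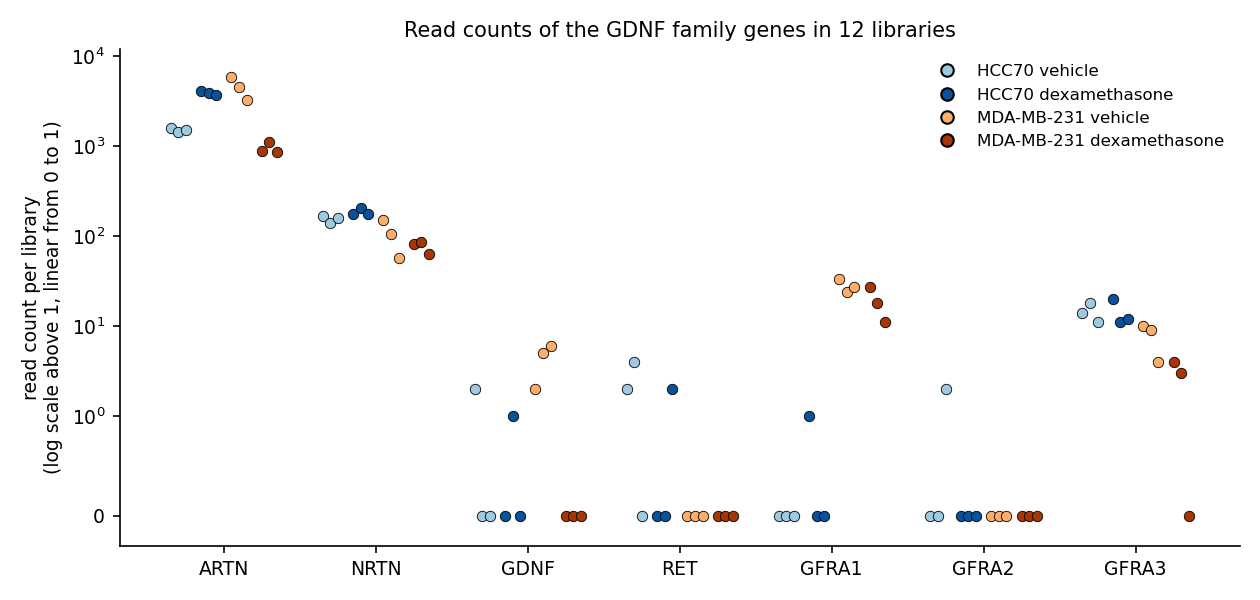
Read counts (vertical axis, log scale above 1 and linear from 0 to 1) of the 7 family members in the 12 libraries, coloured by line and treatment. ARTN has the highest counts and NRTN the next highest, GFRA1 is at 11 to 33 counts in MDA-MB-231 and at 0 or 1 in HCC70, and RET, GDNF and GFRA2 have at most 6 counts in any library.

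Per kilobase of exon, the scale on which genes can be set side by side, ARTN was at 4.92 ± 0.102 CPM in HCC70 vehicle and 14.2 ± 3.91 CPM in MDA-MB-231 vehicle. NRTN followed at 1.21 ± 0.0720 and 0.781 ± 0.350 CPM per kilobase. In HCC70 vehicle GFRA3 was next at 0.0611 ± 0.0168 and RET at 0.00255 ± 0.00261 CPM per kilobase, and in MDA-MB-231 vehicle GFRA3 (0.0309 ± 0.0123) and GFRA1 (0.0241 ± 0.00459) did not differ beyond their spread. Both lines thus held RNA of the ligands ARTN and NRTN at a far higher level than RNA of RET and the co-receptors. Of the remaining family, persephin (PSPN), another ligand, was at 0.166 ± 0.0609 CPM in HCC70 vehicle and 0.992 ± 0.110 CPM in MDA-MB-231 vehicle, its co-receptor GFRA4 had 2 counts in 1 group and 0 in the others, and GFRAL, the receptor of GDF15, had at most 5 counts in a group. These genes, and the alternative receptors that follow, were picked out after their values were seen. SDC3, a heparan sulfate proteoglycan that binds ligands of this family, was at 138.5 ± 11.9 CPM in HCC70 vehicle and 111 ± 23.3 CPM in MDA-MB-231 vehicle, and no SDC3 comparison passed. NCAM1, a GDNF receptor that works with GFRα1, was at 0.130 and 0.118 CPM.

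A list of 30 other genes of the RET pathway, of which 26 were tested, held further ligands, alternative receptors, adaptors and negative regulators. In HCC70, where 3.96% of all tested genes were called, 2 of the 26 rose and 0 fell, with a median log2 difference of 0.14 against -0.01 over all genes. At an unadjusted p under 0.05 these numbers were 8 and 1. The share of all genes at that level was not computed, so nothing is read from these 2 numbers. DESeq2 called 4 rises and 0 falls, against 1061 and 618 over all 28141 tested genes. For limma voom it was 3 and 0, against 876 and 489. With each line fitted alone 9 rose and 2 fell, against 3024 and 1804 of all 25309 tested genes. Without MDA-MB-231 vehicle replicate 1 and dexamethasone replicate 2 together 8 rose and 1 fell, against 2532 and 1335 of all 28564. GRB10, an adaptor that binds activated receptor tyrosine kinases, rose from 52.4 ± 1.46 to 75.9 ± 1.53 CPM (log2 0.54 ± 0.05, adjusted p = 4.34e-05, edgeR). DOK1, a docking protein downstream of RET, rose from 3.93 ± 0.221 to 5.74 ± 0.431 CPM (log2 0.55 ± 0.12, adjusted p = 0.0194, edgeR); 216 bases of its exons overlap LOXL3 on the other strand. The DOK1 call was lost without HCC70 vehicle replicate 1 (adjusted p = 0.101) or 2 (0.0871), or without dexamethasone replicate 1 (0.079) or 3 (0.0627).

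In MDA-MB-231, where 14.6% of all tested genes were called, 1 of the 26 rose and 5 fell, with a median log2 difference of -0.13. With the GC and length offset 5 rose and 8 fell, against 1894 and 3244 of all 28141 tested genes. On leaving out 1 library the number that fell ran from 3 to 9. It was 3 without dexamethasone replicate 1 or 3, where 1248 and 1274 of all tested genes fell. It was 9 without vehicle replicate 3, where 3373 fell. SORT1, which encodes the sorting receptor sortilin, rose from 161 ± 9.59 to 227 ± 10.9 CPM (log2 0.49 ± 0.06, adjusted p = 9.62e-05, edgeR). GDF15, a distant relative of the family that signals through RET with GFRAL, fell from 1.69 ± 0.177 to 0.513 ± 0.130 CPM, or 3.29-fold (adjusted p = 0.000196). GRB10 fell from 106 ± 5.27 to 80.1 ± 1.17 CPM (log2 -0.41 ± 0.05, adjusted p = 0.000116). SORL1, a sorting receptor known to bind GDNF and GFRα1, fell with a log2 change of -0.37 ± 0.07 (adjusted p = 0.00279). The falls of the kinase SRC (-0.44 ± 0.12, adjusted p = 0.0286) and of the docking protein IRS1 (-1.13 ± 0.31, adjusted p = 0.038) were less steady: the SRC call was lost without MDA-MB-231 vehicle replicate 1 (adjusted p = 0.079) or dexamethasone replicate 1 (0.116) or 3 (0.104), and the IRS1 call under 13 of 26 alternatives.

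For the difference of the responses, called for 12.1% of all tested genes, 5 of the 26 were higher in HCC70 than in MDA-MB-231 and 2 lower. On leaving out 1 library 1 to 9 were higher and 1 to 2 lower. Over all tested genes these numbers then ran from 934 to 3592 and from 680 to 2667. GRB10 shared the signs of ARTN in both lines, with both responses called and a difference of 0.94 ± 0.08 (log2, adjusted p = 2.41e-06, edgeR). SORT1 differed in the other direction (-0.48 ± 0.09, adjusted p = 0.00431). IRS1 (1.93 ± 0.44, adjusted p = 0.0228), DOK1 (0.64 ± 0.16, adjusted p = 0.0231), SOS1, an exchange factor of RAS (-0.44 ± 0.11, adjusted p = 0.0236), GDF15 (1.55 ± 0.40, adjusted p = 0.0259) and PSPN (1.11 ± 0.31, adjusted p = 0.0359) also passed. With the GC and length offset the DOK1 difference came to 0.11 (adjusted p = 0.569), and 5 of these calls were lost on leaving out single libraries. Without HCC70 dexamethasone replicate 1 or vehicle replicate 1, or MDA-MB-231 dexamethasone replicate 3, this held for IRS1, DOK1, SOS1 and GDF15. Without HCC70 vehicle replicate 2 or MDA-MB-231 dexamethasone replicate 1 it held for IRS1, DOK1 and GDF15, and without HCC70 dexamethasone replicate 2 for SOS1 and GDF15. The PSPN call was lost with the offset (adjusted p = 0.111) and on leaving out any 1 library other than HCC70 vehicle replicate 1, MDA-MB-231 dexamethasone replicate 2 and MDA-MB-231 vehicle replicate 3. The highest of the adjusted p-values with 1 library left out were 0.0633 for IRS1, 0.0678 for DOK1, 0.0711 for SOS1, 0.0805 for GDF15 and 0.0811 for PSPN (edgeR).

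**Figure D4:**
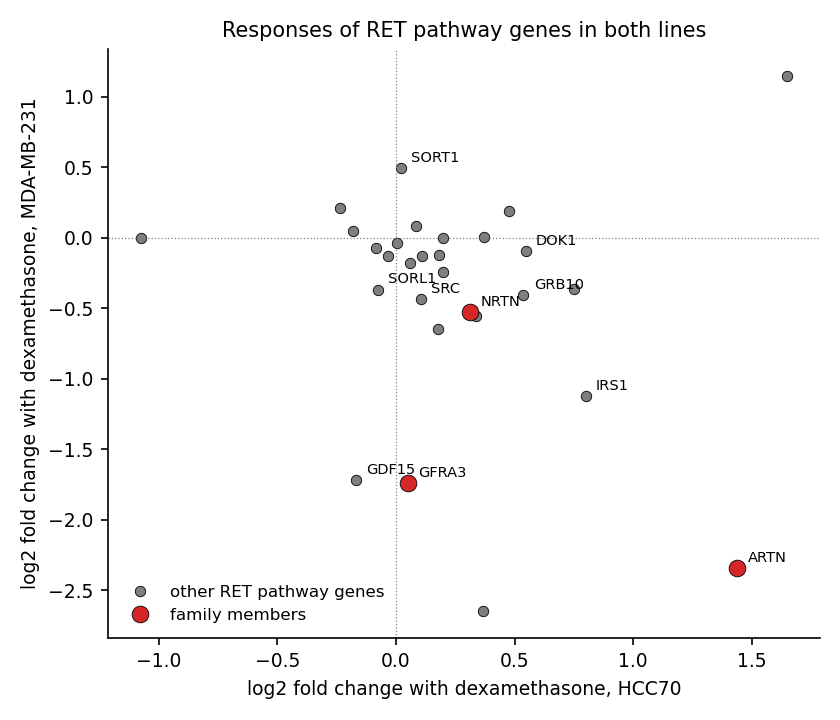
Log2 fold change with dexamethasone in HCC70 (horizontal axis) and MDA-MB-231 (vertical axis) for the family members ARTN, NRTN and GFRA3 and for 26 other RET pathway genes; named are the members and the genes called in at least 1 line. GFRA1 is not drawn because HCC70 held 1 count of it. ARTN lies at 1.44 and -2.34, in the quadrant of a rise in HCC70 and a lower level in MDA-MB-231. It was picked on its value on the vertical axis. GRB10 lies in the same quadrant at 0.54 and -0.41, with both responses called. Others there, without a call in both lines, include IRS1 (0.80 and -1.13), NCAM1 (0.37 and -2.65), NRTN and GFRA3. SORT1 is among the genes outside it.

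In vehicle 11 of the 26 were higher in HCC70 and 13 lower, where 79.2% of all tested genes were called. CBLC, a ubiquitin ligase for receptor kinases, was at 33.9 ± 2.44 CPM in HCC70 and 0.211 ± 0.0366 CPM in MDA-MB-231 (adjusted p = 2.18e-15, edgeR), and the adaptor GRB7 at 38.7 ± 3.78 and 2.70 ± 0.552 CPM (5.95e-11). SORT1 was 2.002-fold higher in HCC70 (2.53e-09). The docking proteins GAB2, at 0.435 ± 0.0531 and 11.1 ± 0.367 CPM (1.84e-13), and DOK1 (4.14-fold, 8.2e-10) were lower in HCC70, as was GRB10 (2.03-fold, 2.96e-10).

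Of 12 neurotrophins, related factors and their receptors, 9 were tested. None passed in HCC70 by edgeR, DESeq2 or limma voom, where 3.96% of all tested genes were called by edgeR. At an unadjusted p under 0.05 there were 1 rise (BDNF) and 1 fall (CNTF). The share of all genes at that level was not computed, so nothing is read from these. Without HCC70 vehicle replicate 3, 1 rose and 0 fell, against 523 and 287 of all 28730 tested genes. With each line alone and the offset 0 rose and 1 fell of 6 tested, against 2611 and 1470 of all 25309. In MDA-MB-231, where 14.6% of all tested genes were called, 1 of the 9 rose and 1 fell. The gene that fell is not reported here. The rise was that of pleiotrophin (PTN), from 1.27 ± 0.0927 to 1.82 ± 0.166 CPM (adjusted p = 0.0429, edgeR). The PTN call was lost with the GC and length offset (adjusted p = 0.259) and without any of MDA-MB-231 vehicle replicates 1, 2 and 3 (0.0636, 0.117 and 0.0796), MDA-MB-231 dexamethasone replicates 1 and 3 (0.156 and 0.135) or HCC70 dexamethasone replicate 2 (0.0504). Between the lines in vehicle 3 were higher in HCC70 and 6 lower, where 79.2% of all tested genes were called. BDNF was at 0.0631 ± 0.0353 CPM in HCC70 and 62.3 ± 1.28 CPM in MDA-MB-231, while midkine (MDK, 84.7 ± 3.77 and 10.3 ± 0.355 CPM, adjusted p = 3.34e-14, edgeR) and the BDNF receptor NTRK2 (9.27 ± 0.199 and 0.0672 ± 0.0575 CPM) were higher in HCC70. No test is given for BDNF or NTRK2 between the lines, since each was near 0 in 1 of them. The log2 difference of the BDNF responses was 1.303 ± 0.33. Its HCC70 side rests on 22 counts over the vehicle libraries and 44 over the dexamethasone libraries (means of 0.0631 and 0.132 CPM). No test of this difference is given either, for the same reason. In the exons of BDNF 701 bases overlap the antisense gene BDNF-AS.

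The genes whose log2 CPM ran most like that of ARTN over the 12 libraries, by Pearson's r, were JUN (0.994), which encodes a subunit of AP-1, NOS1AP (0.972), SPSB1 (0.967), C1orf226 (0.963) and BEND3 (0.952). These 12 points share their libraries, their GC trends and the 4 group means, so r is a description only. With the GC and length trends removed r was 0.936 for JUN, 0.905 for NOS1AP, 0.95 for SPSB1, 0.957 for C1orf226 and 0.735 for BEND3. NOS1AP and C1orf226 share 178 exon bases on the same strand, so their reads may not be separate. JUN had a log2 difference of 0.78 in HCC70 and -1.299 in MDA-MB-231, both called. For NRTN the 3 genes with the highest r were AL583828.1 (0.977), an entry known only by a clone name (0.975) and KLHL26 (0.973), none called in either line. For GFRA1 they were CA5BP1 (0.991), SAFB2 (0.99) and C10orf55 (0.989), and for GFRA3 AC000079.1 (0.962), CALHM3 (0.948) and CCDC88B (0.944); the likeness to GFRA1 and GFRA3 rests on low counts of these members.

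The genes on either side of ARTN were read beside it. ST3GAL3, whose annotated end lies 2154 bases from ARTN, was at 15.4 ± 0.5001 and 17.5 ± 1.36 CPM in HCC70 (log2 0.19 ± 0.08, adjusted p = 0.218, edgeR) and at 16.4 ± 1.52 and 16.7 ± 0.385 CPM in MDA-MB-231 (0.02 ± 0.08, adjusted p = 0.876), in vehicle and dexamethasone. IPO13, 9697 bases away on the other side, had 90.7 ± 4.94 and 116 ± 5.43 CPM in HCC70 (0.36 ± 0.10, adjusted p = 0.0706) and 64.4 ± 8.38 and 52.2 ± 6.76 CPM in MDA-MB-231 (-0.30 ± 0.10, adjusted p = 0.0585). Neither response of IPO13 passed, but the difference between them did, in the direction of ARTN (0.66 ± 0.14, adjusted p = 0.0099). No annotated gene shares exon bases with ARTN in GENCODE v29. Of the neighbours of the other members, CDC25C beside GFRA3 fell in HCC70 (-0.31 ± 0.08, adjusted p = 0.041) and LZTS1 beside GFRA2 fell in MDA-MB-231 (-1.22 ± 0.21, adjusted p = 0.00104). The neighbours, IPO13 among them, were not read with the GC and length offset or with libraries left out. How far their calls depend on the libraries' GC trends was not tested.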

How the data were processed

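RNA of 12 libraries, 3 in each of 4 groups given by the labels, was measured by polyA RNA-seq with transposase-made libraries that do not keep strand, per the labels' protocols. The deposited values are unscaled read counts, as whole numbers, with 1 line per gene. Build hg19, TopHat 1.4.1, Cufflinks 1.3.0 and bedtools are named per the submitters' processing notes; the counting tool and annotation release are not given in the sources used here. All 12 columns matched a library.

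With edgeR 4.0.16 in R 4.3.3, genes of low counts were removed by filterByExpr at a minimum count of 10, which kept 28141, and TMM factors were used for scaling. A robust quasi-likelihood model with 4 group means was fitted to all libraries (8 residual and 5.64 prior degrees of freedom) and tested two-sided, with Benjamini-Hochberg adjustment over all tested genes and a threshold of 0.05. ARTN, NRTN, GFRA1 and GFRA3 passed the filter; GDNF, RET and GFRA2 did not and are given by counts. The GC and length offset used natural splines with 4 degrees of freedom and GENCODE v29 values for 25272 tested genes (89.8%). The main fit was checked on simulated counts. These had no GC trends among libraries and changed genes in HCC70 only, so the check does not cover p-values under such trends. Alternatives were other scalings, filters, DESeq2 1.42.0, limma 3.58.1 voom, a replicate block, each line alone, the offset, and libraries left out; each line alone with the offset was added after the data were seen.

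The members, lists and comparisons were chosen with earlier results of these data known. Named are all members, NR3C1, FKBP5 and TSC22D3 as a check of treatment (NR3C1, the glucocorticoid receptor gene, was at 56.6 and 52.1 CPM in HCC70 and at 125 and 88.9 CPM in MDA-MB-231 in vehicle and dexamethasone; TSC22D3 rose 2.70-fold and 28.9-fold), up to 6 called RET pathway genes and 3 called neurotrophin genes per comparison, the 5 genes most like ARTN of mean log2 CPM 0 or more and 3 for each other tested member, and the nearest neighbours. Some genes that this rule or the marker lists take are not reported here.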

Additional observations from a re-analysis of the deposited data

Results flagged for a closer look

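The response of ARTN differed between the lines: the log2 response in HCC70 minus that in MDA-MB-231 was 3.78, with all 3 dexamethasone libraries above all vehicle libraries in HCC70 and all 3 below in MDA-MB-231. ARTN was taken up because of its lower level in MDA-MB-231, so this is a description. The value was 2.88 with the GC and length offset, and the part of the libraries' GC trends in the remaining difference was not tested.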

How the results depend on the processing

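ARTN kept its direction under each alternative run and, in HCC70, its call: its log2 differences ran from 1.08 to 1.48 in HCC70, from -2.51 to -1.80 in MDA-MB-231, from -1.91 to -1.32 between the lines and from 2.88 to 3.95 for the difference of the responses. The count of genes called in HCC70, 1114 as reported, was 1679 by DESeq2, 4828 with each line alone, 1941 with the GC and length offset, 4081 with both, 3867 without MDA-MB-231 vehicle 1 and dexamethasone 2 together, and 510 to 1775 on leaving out 1 library. In MDA-MB-231 it was 4110 as reported, 2116 with the line alone and 2424 to 6452 on leaving out 1 library. For the difference it was 3391 as reported, 6206 without that pair of libraries and 1614 to 6259 on leaving out 1. Between the lines the strict filter left 11980 calls, and NRTN, below 5 CPM in each library, was no longer tested. On leaving out 1 library, NRTN passed in MDA-MB-231 and for the difference only without MDA-MB-231 vehicle replicate 3. The replicate numbers did not pair the libraries: deviations of same-numbered libraries correlated at -0.23, 0.12 and 0.01 in HCC70 and -0.63, -0.26 and 0.33 in MDA-MB-231, and not every library correlated best with its own number. The replicate block gave 481 calls in HCC70, 2551 in MDA-MB-231 and 1480 for the difference. Of the calls in HCC70 64.5% were rises, against 42% scaled by library size only, 51.8% under the strict filter and 75.7% with the block; for the difference 57.8% were positive, against 41.4% and 46.1% under the first and second of these. Library size alone moved the median of all genes for the difference from -0.01 to -0.13, and upper quartile scaling that between the lines from -0.03 to -0.13. Values that changed sign, none called: GFRA3 in HCC70 was -0.0408 by library size only, -0.093 with the offset, -0.102 with offset and block, -0.0902 with the line alone and offset, and -0.26 to 0.28 on leaving out 1 library. NRTN in HCC70 was -0.0363, -0.0357 and -0.0333 under the same 3 offset fits. NRTN in MDA-MB-231 was 0.0229 with offset and block, and for the difference NRTN was -0.036 with the offset and -0.0586 with offset and block. The cause of these changes was not tested. Depth limits RET, GDNF and GFRA2 to a statement of counts.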
